A study of Caenorhabditis elegans with 4 samples.

Results

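Many of the sites at which LET-418 was mapped in Caenorhabditis elegans larvae lay side by side, and the stretches in which 3 or more of them followed each other closely are described here. Peaks of the series-wide list were sorted along each chromosome, neighbours were joined where the start of the next peak lay at most 1000 bp beyond the end of the previous one, and stretches of 3 or more joined peaks were kept as runs. Of the 13690 series-wide peaks, 5793 (42.3%) fell into 1216 runs. A further 2644 peaks formed 1322 pairs, and 5253 (38.4%) were isolated, with no neighbour within 1000 bp. The members were chosen by the peak positions of this list, so the comparisons of runs with isolated peaks below are descriptions without a test.

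LET-418 is a worm Mi-2 protein, a chromatin-remodelling ATPase that uses the energy of ATP to move nucleosomes, and a homologue of vertebrate CHD4. It works in the NuRD complex, which joins remodelling to the removal of histone acetyl groups, and in the MEC complex. In worms it is known for keeping germline genes off in somatic cells, and for vulval development and larval growth. The binding of a remodeller can appear in ChIP-seq, which sequences the DNA fragments crosslinked to a protein, as single narrow peaks or as stretches of many.

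The study used chromatin from whole wild-type N2 worms of larval stage L3, a mixed population of males and hermaphrodites grown at 20 °C, with no allele or treatment that sets samples apart. Of the 4 samples 2 are ChIP and 2 are input DNA, each with replicate numbers 1 and 2, and the antibody against LET-418 was polyclonal, raised in rabbit and affinity-purified. Whole larvae pool all tissues, so a run cannot be ascribed to a cell type, and peaks that follow each other in a run need not be occupied in the same cells. On the WormBase WS220 assembly 3 peak lists were at hand, with 1887 peaks in replicate 1, 19594 in replicate 2 and 13690 in the series-wide list. No read counts came with the lists, and the depth behind a peak is unknown. How the series-wide list was made from the replicates is not given in the sources used here, so the replicate lists are not known to be independent of it.

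Runs were mostly short. Of the 1216 runs, 500 (41.1%) had 3 peaks, 236 had 4, 174 had 5 and 109 had 6, while 62 had 10 or more and the longest by number had 26. The median run had 4 peaks and spanned 2599 bp (quartiles 1788 and 3970 bp), and the span ranged from 707 to 18030 bp. In all, 172 runs spanned 5 kb or more and 25 spanned 10 kb or more. All runs together spanned 3934 kb, or 3.92% of the 100.3 Mb between the chromosome starts and the last peaks, and their peaks held 49.05% of all bases under series-wide peaks.

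Peaks were set close together inside a run. The distance from the end of one peak to the start of the next had a median of 305 bp (quartiles 143 and 552 bp) over 4577 such neighbour pairs, and 36.4% of these distances were under 200 bp. Peaks covered a median of 55.3% of the run's span, from 22.8 to 95.5%. In none of the 3 lists were 2 peaks nearer than 38 bp. The distances fell off smoothly through the joining limit: the list held 291 distances of 800 to 899 bp, 280 of 900 to 999 bp, 247 of 1000 to 1099 bp and 220 of 1100 to 1199 bp. Peaks on either side of the limit were alike in score and width. Where neighbours were 901 to 1000 bp apart (282 joins), the median score was 7.34 and the median width 250.5 bp. Where they were 1001 to 1100 bp apart (246 gaps), these were 7.27 and 248 bp. At least 1 of the 2 neighbours overlapped a replicate 1 peak in 22.7% of these joins and 19.1% of these gaps. The widest join that was still accepted, of 1000 bp, held together the 4 peaks of I 5377328 to 5381400. A distance of 1001 bp kept a pair of peaks out of the 9-peak run at I 13817357 to 13822788.

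**Figure D1:**
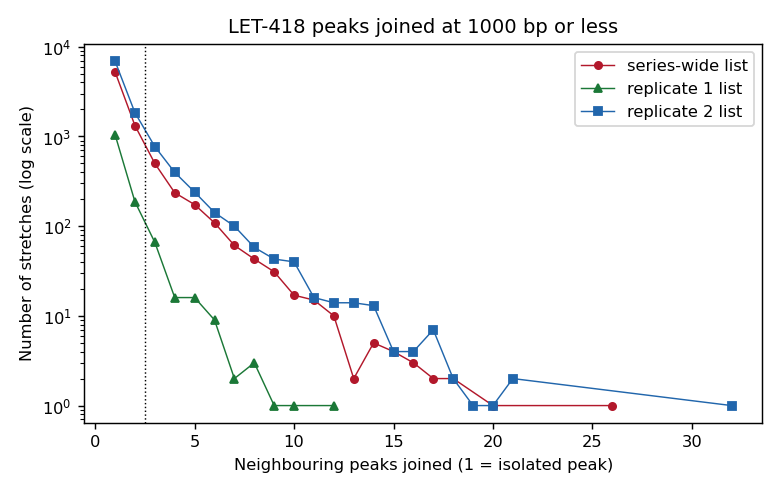
Number of stretches (log scale) against the number of neighbouring peaks joined in each, for the series-wide list and both replicate lists under the same rule. Runs lie right of the dotted line, and their longest member counts are 26 in the series-wide list, 32 in replicate 2 and 12 in replicate 1.

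The run with the most peaks lay in the left part of chromosome II, at II 2432629 to 2448925. Its 26 peaks covered 46.8% of 16297 bp and scored from 3.79 to 37.56, with a median of 10.04. The score is the authors' own peak score, which has no named scale and was compared only within a list. Of the 26 peaks, 23 were called in replicate 2 and 4 in replicate 1, where called means an overlap of at least 1 bp. The 4 peaks found in replicate 1 scored 19.88 to 37.56 in the series-wide list, and the 3 missing from replicate 2 scored 9.06, 3.79 and 5.19 and lay among the last 6 of the run. The strongest peak of the run, II 2442671 to 2443185 (515 bp), scored 37.56 in the series-wide list, 11.31 in replicate 1 and 42.62 in replicate 2. Its nearest neighbours in the run, 153 bp before and 475 bp after, scored 10.24, close to the run's median, and 4.28.

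Another run on the left part of II was strong throughout. All 10 peaks of II 2245656 to 2253212 were called in both replicates, and their series-wide scores ran from 25.66 to 45.85, all above the upper quartile of run peaks (14.66). The highest was II 2250605 to 2251055, with 45.85 in the series-wide list, 14.28 in replicate 1 and 59.65 in replicate 2. The lowest, II 2249561 to 2249899, had 25.66, 3.33 and 33.79. In a run at II 2183642 to 2197762 nearby, 12 of 18 peaks were called in replicate 1 and 17 in replicate 2. No run had more peaks in replicate 1. The next 4 runs by that count were III 3098979 to 3112353 with 11 of 18 peaks, the run of 10 described above, III 3085235 to 3093516 with 8 of 10 and III 1180091 to 1188864 with 7 of 15. The last of these had no peak below 13.20 and was called in full in replicate 2. The 2 runs between III 3085235 and 3112353 were 5463 bp apart, and each had weak peaks in its right portion that neither replicate called. These were 2 of 10 peaks in the first run and 4 of 18 in the second.

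Chromosome V had a run with an uneven profile at V 20408663 to 20424804. Its 20 peaks were all called in replicate 2, but the first 17 scored 1.86 to 14.13 and the last 3 scored 50.87, 42.84 and 36.31. Those 3 had replicate 1 scores of 13.58, 10.14 and 6.84 and replicate 2 scores of 114.69, 117.96 and 67.56. They lay within 1689 bp, whereas the run spanned 16142 bp. Of the first 17 peaks, 1 was called in replicate 1, with a score of 2.91 there.

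The runs on X with the most peaks were weak. At X 11471118 to 11483154, 16 peaks covered 67.0% of 12037 bp with scores of 1.33 to 13.95, all 16 were called in replicate 2 and none in replicate 1. A further run of 16 peaks, X 12171720 to 12183746, scored 2.00 to 12.70, with 15 peaks in replicate 2 and none in replicate 1. The run with the highest share of its span under peaks, 95.5%, was also on X. It had 5 peaks over 15418 bp at X 16929431 to 16944848. Its first 2 peaks, 6518 and 6975 bp wide and 51 bp apart, met 6 and 5 replicate 1 peaks, and a single replicate 2 peak reached across both. They scored 30.36 and 9.72 in the series-wide list.

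The longest run by span was on the right part of II, at II 10542005 to 10560034. It extended over 18030 bp with 14 peaks, all of them called in replicate 2, and 5 were called in replicate 1. Its peaks scored 4.74 to 27.28, and 6 of them were wider than 1 kb, the widest 2934 bp. The run at II 1233091 to 1247421 (14331 bp) was of the same kind, with 10 of 10 peaks in replicate 2 and 1 in replicate 1. Some other long runs were dense but of modest score: II 6825765 to 6839275 with 17 peaks up to 16.58, II 5329173 to 5340486 with 16 up to 14.90 and I 13055284 to 13064222 with 15 up to 18.87 had 1, 2 and 1 peaks in replicate 1. On the left parts of II and IV, II 1084958 to 1096481 (17 peaks up to 41.99) and IV 2383143 to 2392527 (15 peaks up to 37.56) had 6 and 4.

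**Figure D2:**
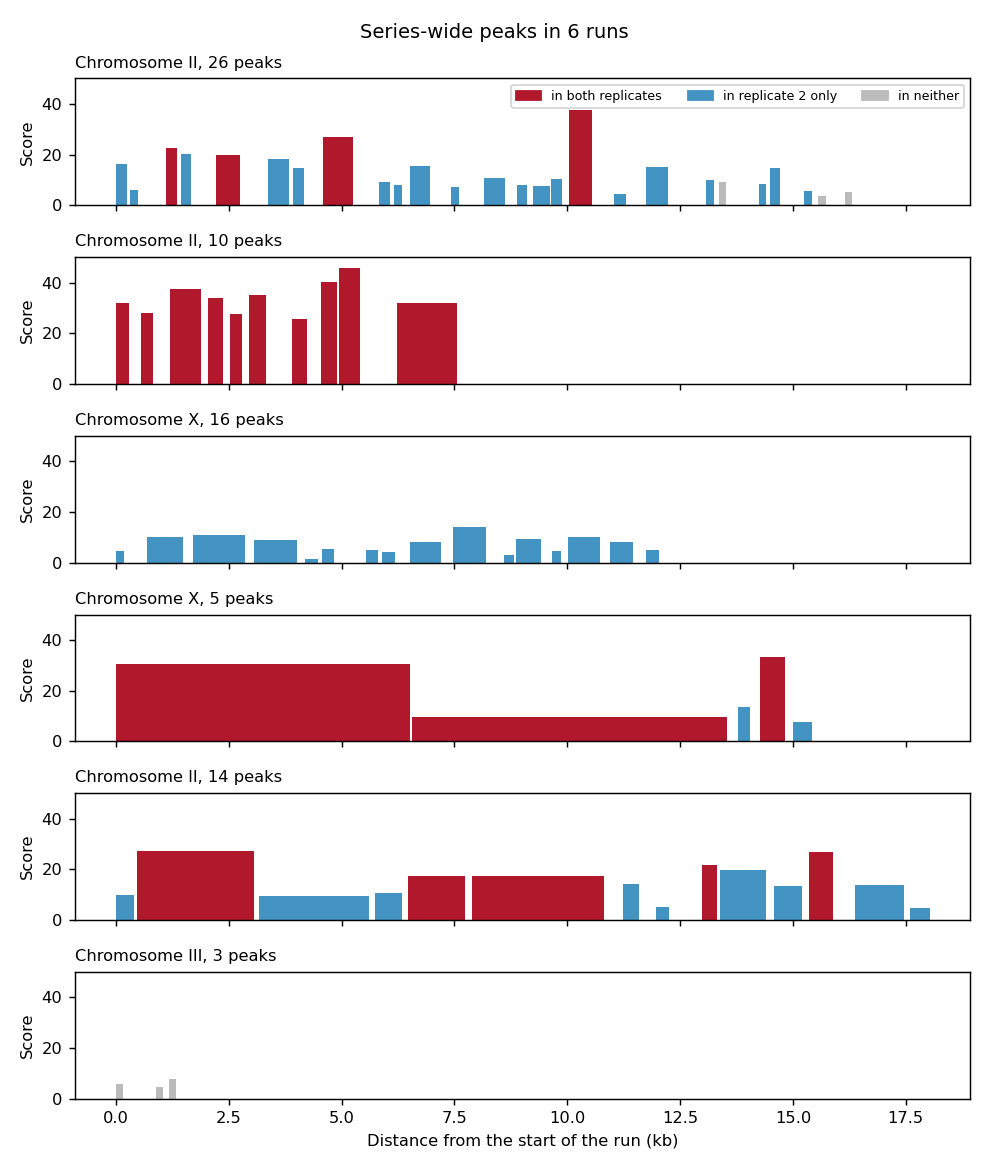
Series-wide peaks of 6 runs as bars to scale, with the distance from the start of the run in kb on the horizontal and the series-wide score on the vertical axis, coloured by the replicates that called each peak. The runs are, from the top, those starting at II 2432629, II 2245656, X 11471118, X 16929431, II 10542005 and III 2215440. The run of 10 peaks is in both replicates throughout, the 16 peaks on X are in replicate 2 without replicate 1, and the 3 peaks at the bottom are in neither.

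The 5 runs with the highest-scoring peak lay on II and III and had 3 to 6 peaks, as most runs did. The highest score in a run, 55.20, was also reached by an isolated peak. In III 2122732 to 2127751 the 2 wide peaks at the right scored 50.87 and 55.20, were called in both replicates and met 3 and 2 replicate 1 peaks, while the 2 narrow ones at the left scored 11.90 and 7.20 and were in neither list. The next run, III 2128856 to 2132356, began 1105 bp further on and had scores of 41.35, 54.92 and 13.85. At III 1514892 to 1520670 the scores were 11.90, 10.24, 43.91, 3.71, 14.10 and 54.44, with the replicate 1 peaks at the third and the sixth. At III 1607126 to 1609483 they were 3.17, 21.43 and 54.44. In II 456375 to 458176 all 3 peaks were strong (54.44, 36.07 and 36.92), and all 3 were called in both replicates. In each of the other 4 runs at least 1 peak scored below 14.66, the upper quartile of run peaks.

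Uneven scores were the rule among runs. The highest score of a run was a median of 3.86 times its lowest (quartiles 2.47 and 6.56), and at least 3 times in 784 runs (64.5%). This ratio can only grow as peaks are added to a run. Over all series-wide peaks the score quartiles were 4.58 and 13.45. No ratio was computed for groups of peaks outside runs, so unevenness is not shown to be particular to runs. In 416 runs (34.2%) at least 1 peak belonged to the highest score decile of the list, and in 11 runs all did. That decile held 1369 of the 13690 series-wide peaks, of which 753 were in runs and 384 isolated. A run has several peaks, so the share of runs is not comparable with a share of single peaks. It does not set runs apart from other peaks. Scores of neighbours inside a run were weakly related (Spearman's rho 0.28 over 4577 neighbour pairs, against 0.09 over 7785 neighbours more than 1000 bp apart), a description across peaks that share 1 list. The strongest peak had no preferred place. It was an inner peak in 596 runs (49.01%), and inner peaks made up 50.4% of a run on average. First peaks had a median score of 8.08, inner peaks 8.31 and last peaks 7.65.

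Replicate 2 called most peaks of most runs, and replicate 1 seldom more than 1 or 2. In replicate 2, 5408 of the 5793 run peaks were called, or 93.4% (95% Wilson interval 92.7 to 94.0), where the share over all series-wide peaks was 93.3% and that of isolated peaks 93.7% (93.01 to 94.3). In replicate 1, 953 run peaks were called, or 16.5% (15.5 to 17.4), against 12.1% over all series-wide peaks, 10.6% (9.47 to 11.8) in pairs and 8.15% (7.44 to 8.92) among isolated peaks. These intervals cover counting error only and are too narrow for peaks that are called together. By run, replicate 2 had all peaks of 922 runs (75.8%), some of 291 and none of 3. Replicate 1 had all peaks of 15 runs (1.23%), some of 507 (41.7%) and none of 694 (57.1%). At least 3 peaks were called in replicate 1 in 106 runs and at least 5 in 26.

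Replicate 1 called the strongest peak of a run more often than the weaker ones. Of the 1216 highest-scoring peaks of a run, 37.6% were called in replicate 1, of the second 18.6%, of the third 9.46% and of the lowest 2.22%. In replicate 2 these shares were 98.9, 96.1, 92.3 and 84.7%. In runs of 3 the third peak is also the lowest. The replicate 1 share was 14.5% (12.8 to 16.4) in runs of 3 and 24% (21.1 to 27.1) in runs of 10 or more, though it did not go up at each step, and runs of 4 had 11.8% (9.86 to 13.97). The median score was 7.69 in runs of 3 and 10.24 in runs of 10 or more. The replicate 2 share stayed between 92.3 and 94.1% for all run sizes.

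At a like series-wide score, strong peaks in runs were called in replicate 1 more often than strong isolated peaks. In the highest of 5 score classes of about equal size (15.32 to 55.20) the share was 59.3% (56.7 to 61.8) of 1375 run peaks, 48.9% (44.5 to 53.4) of 472 peaks in pairs and 37.7% (34.6 to 40.9) of 886 isolated peaks. In replicate 2 the shares were 99.6, 99.4 and 99.8%. Run peaks of that class had a median score of 22.48 and a median width of 403 bp, and isolated ones 20.59 and 294 bp. With an overlap of 1 bp the order of run and isolated peaks held in 15 of 18 parts of chromosomes (each chromosome cut into 3 equal parts). The exceptions were the middle of I, the middle of II and the right part of IV. Some parts held few such peaks, as the middle of X with 15 run peaks. The 1 bp intervals overlapped in the middle parts of the autosomes (43.3%, 34.8 to 52.3, and 37.0%, 30.9 to 43.7). On X they overlapped too (32.1%, 21.4 to 45.2, and 17.8%, 11.7 to 26.1). With the stricter demand that replicate 1 cover 50% of the peak, the shares of run and isolated peaks were 40.1% (37.6 to 42.8) and 26.98% (24.2 to 29.99). By place they were then 42.7% (39.9 to 45.5) and 30.6% (26.9 to 34.5) in the outer parts of the autosomes and 19.6% (11.3 to 31.8) and 9.35% (5.16 to 16.4) on X. In the middle parts of the autosomes the order turned, with 24.2% (17.4 to 32.6) of 120 run peaks and 26.4% (20.96 to 32.6) of 216 isolated peaks, and the intervals overlapped there and on X. Pairs had the highest share in the middle parts, with 30.7% (21.4 to 41.8) of 75 peaks, and 48.0% (37.1 to 59.1) with an overlap of 1 bp. In the outer parts and on X pairs lay between run and isolated peaks. In the fourth class (9.45 to 15.31) the shares were 9.18% (7.63 to 11.0) and 6.69% (5.36 to 8.32), with overlapping intervals, and below it the replicate 1 share was at most 2.03% in all groups. Calls were not compared at matched width, and the part of width and of the remaining differences in score was not tested.

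**Figure D3:**
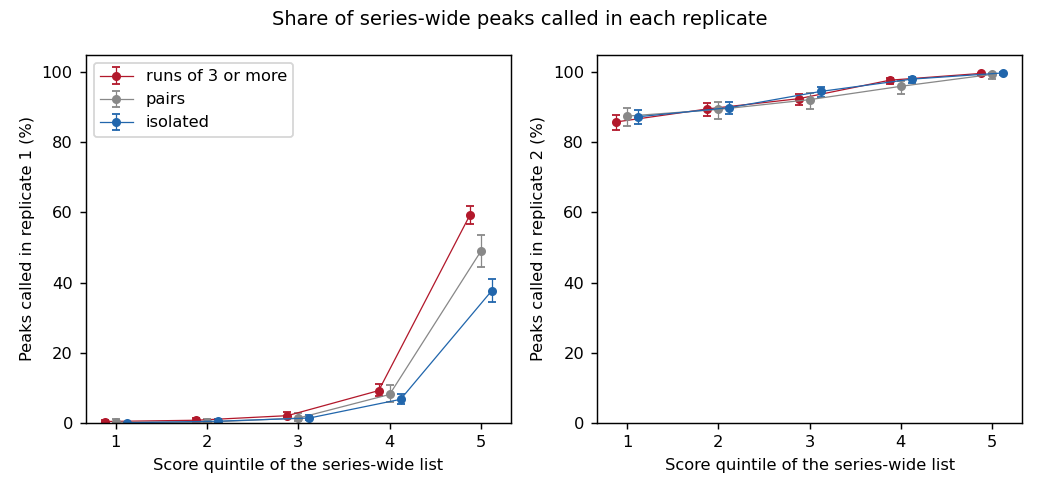
Percent of series-wide peaks called in replicate 1 (left) and replicate 2 (right) against the score class of the series-wide list (1 lowest, 5 highest), for runs, pairs and isolated peaks; bars are 95% Wilson intervals. In class 5 the replicate 1 shares are 59.3, 48.9 and 37.7%, while the replicate 2 shares nearly coincide in all classes.

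Runs were found in 1871 places when the rule was applied to replicate 2 and in 115 when it was applied to replicate 1. They took in 45.97% of the peaks in the first of these lists and 24.6% in the second. Of the 115 replicate 1 runs, 97 (84.3%) met a series-wide run by at least 1 bp, and 93 of the 1216 series-wide runs (7.65%) were met. Of the 1871 replicate 2 runs, 1041 (55.6%) met a series-wide run, and 1069 series-wide runs (87.9%) were met. The share of all replicate peaks that meet a series-wide run was not computed. A long span also meets another span more readily than a single peak does. These shares therefore do not set runs apart from other peaks. The lists also cut a stretch in different ways. Of the 4577 neighbour pairs inside series-wide runs, 552 (12.1%) lay under 1 and the same replicate 2 peak, in 370 runs, and 21 runs lay with all their peaks under a single replicate 2 peak. In replicate 1, 277 neighbour pairs had both peaks called, and no pair lay under the same peak. In the other direction 3.18% of the run peaks met 2 or more replicate 2 peaks, against 1.07% of isolated peaks. Run peaks were also wider, with a median of 275 bp against 224 bp, and the part of width was not tested. The share over all series-wide peaks was not computed.

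All 3 runs of which neither replicate called a peak were on III, each with 3 peaks: III 1747225 to 1749080, with scores of 6.51, 4.57 and 7.20, III 2215440 to 2216782, with 5.83, 4.57 and 7.93, and III 12231958 to 12233764, with 3.52, 4.65 and 4.05. Of their 9 peaks, 8 were no wider than 240 bp, and the widest had 422 bp. Over all run peaks, 378 were called in neither replicate, or 6.53% (5.92 to 7.19), against 6.57% of all series-wide peaks and 6.23% (5.60 to 6.91) of isolated ones.

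Runs were unevenly placed along the genome. Chromosome III had 282 runs, or 20.5 per Mb, and 49.5% of its peaks in runs (47.6 to 51.3). X had 129 runs, or 7.28 per Mb, and 31.6% in runs (29.5 to 33.7). The other chromosomes lay between, with 15.6 runs per Mb on I, 12.96 on II, 10.6 on IV and 8.94 on V, and 40.5 to 46.02% of their peaks in runs. Isolated peaks were spread more evenly, from 41.4 per Mb on V to 64.8 on I, with 51.5 on X. By the joining rule a peak with a close neighbour does not count as isolated. Peaks of all kinds were denser on III (2749 in 13.8 Mb) than on X (1896 in 17.7 Mb), and the part of density was not tested. Set against protein-coding genes, counted per chromosome in the WBcel235 assembly, V was lowest with 37.4 runs per 1000 genes, X had 47.3 and III had 106.7. The median run had 4 peaks on each of the 6 chromosomes.

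The share of peaks in runs was highest in the left part of III with 57.0% (54.3 to 59.7) and the left part of II with 56.2% (52.9 to 59.6), and lowest in the middle of IV with 29.3% (25.5 to 33.4). On X the 3 parts lay close together, at 32.4, 32.8 and 29.95%. The middle part held 20.1% (19.01 to 21.2) of autosomal run peaks and 30.8% (29.4 to 32.1) of autosomal isolated peaks. Per 500 kb, the fullest stretch was III 1.5 to 2 Mb, with 210 run peaks in 39 runs and 41 isolated peaks, followed by 145 run peaks at II 1 to 1.5 Mb and 116 at II 2 to 2.5 Mb. On V the fullest was 19.5 to 20 Mb, with 108. The median over 197 whole bins was 21 run peaks and 26 isolated peaks, and 6 bins had no run. Dense peaks come within 1000 bp of each other more often, and the part of density in these shares was not tested.

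**Figure D4:**
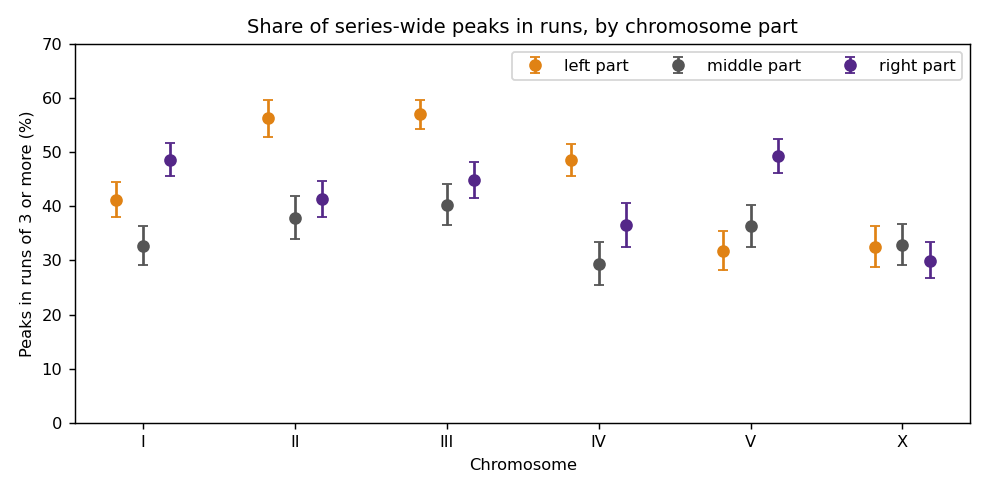
Percent of series-wide peaks that belong to runs, in the left, middle and right part of each chromosome cut into 3 equal parts; bars are 95% Wilson intervals. The left parts of II and III stand highest at 56.2 and 57.0%, and the 3 parts of X lie between 29.95 and 32.8%.

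Run peaks were wider than isolated peaks in all 18 chromosome parts. The joining distance was measured from peak edge to peak edge, so a wider peak leaves shorter gaps and is joined more readily. The part of this rule in the widths was not tested. The median width was 275 bp (95% interval of the median 269 to 280) in runs, 242 bp (238 to 248) in pairs and 224 bp (222 to 227) for isolated peaks. Of the 393 series-wide peaks wider than 1 kb, 279 (71.0%) were in runs and 66 (16.8%) were isolated, where runs held 42.3% of all peaks. Scores differed less. The median was 8.20 (7.93 to 8.31) in runs, 7.16 (6.85 to 7.27) in pairs and 7.50 (7.20 to 7.57) for isolated peaks, and runs held 55.0% (52.4 to 57.6) of the highest score decile.

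The order of the scores depended on the chromosomal place, while that of the widths did not. In the outer parts of the autosomes run peaks scored higher than isolated ones, with medians of 9.32 (9.03 to 9.79, 4151 peaks in 855 runs) and 7.57 (7.28 to 7.93, 3005 peaks). In the middle parts of the autosomes they scored lower, with 6.32 (5.97 to 6.68, 1043 peaks) against 7.57 (7.20 to 7.90, 1335 peaks). They scored lower on X too, with 6.05 (5.55 to 6.42, 599 peaks) against 6.86 (6.48 to 7.20, 913 peaks). Run peaks had the higher median in 9 of 10 outer autosomal parts, the left part of V being the exception, in none of the 5 middle parts and in none of the 3 parts of X. The widths were 272 and 227 bp in the outer parts, 289 and 219 bp in the middle parts and 280 and 222 bp on X. Compared with isolated peaks, run peaks of the outer parts were thus wide and strong, and those of the middle parts and of X wide and weak. The gap was widest in the left part of III, with median scores of 14.40 in runs and 8.67 for isolated peaks. Peaks in pairs had low medians too: 6.195 (5.83 to 6.74) for X and 6.165 (5.51 to 6.71) for the autosomal middle. Their outer median was 7.65 (7.20 to 8.02), near that of isolated peaks. Weak scores away from the outer parts were therefore not particular to runs of 3 or more. In score, runs stood apart from pairs in the outer parts alone.

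The lower scores of runs in the middle parts and on X were not found when the rule was applied to the replicate 2 list with its own scores. There the medians of run and isolated peaks were 10.88 (10.44 to 11.33) and 8.32 (7.92 to 8.51) in the outer parts, 9.37 (8.82 to 9.83) and 8.83 (8.42 to 9.21) in the middle parts, and 9.45 (8.73 to 10.0) and 8.73 (8.14 to 9.15) on X. In the replicate 1 list they were 6.37 (6.01 to 6.62) and 4.83 (4.83 to 5.34) in the outer parts, and 3.30 (2.26 to 4.51) and 4.77 (4.28 to 5.42) in the middle parts, which held 3 replicate 1 runs with 19 peaks. On X, with 4 runs and 16 peaks, they were 3.25 (2.27 to 5.20) and 4.27 (3.24 to 5.32). The greater width of run peaks, to which the edge-to-edge joining rule can contribute, was found in all 3 places in each list. The widths were 268 and 225, 291 and 228, and 289 and 234 bp in replicate 2. In replicate 1 they were 222 and 203, 329 and 185, and 275 and 208.5 bp.

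Replicate calls of the series-wide peaks also differed by place. Where run and isolated peaks were called in replicate 2, their median replicate 2 scores were 17.2 (16.7 to 17.7) and 14.7 (14.2 to 15.2) in the outer parts, 16.3 (15.2 to 17.7) and 16.98 (15.8 to 18.02) in the middle parts, and 16.6 (14.6 to 18.7) and 17.7 (16.2 to 19.4) on X. The intervals overlap in the middle parts and on X. In replicate 1, 20.2% (19.04 to 21.5) of run peaks and 9.68% (8.68 to 10.8) of isolated peaks were called in the outer parts, 8.25% (6.73 to 10.07) and 7.79% (6.47 to 9.35) in the middle parts, and 4.51% (3.12 to 6.48) and 3.61% (2.59 to 5.03) on X. A replicate 1 peak met 53.5% of the runs on III, 42.6 to 44.9% of those on the other autosomes and 14.7% of those on X. Of isolated peaks, replicate 1 called 9.85% on III, 7.03 to 9.875% on the other autosomes and 3.61% on X. The low share on X was therefore not particular to runs. A run offers several peaks to meet, so its shares are not on the scale of those of single peaks. The share of run peaks called in replicate 1 was above that of isolated peaks on 6 of 6 chromosomes and in 13 of 18 chromosome parts. The share called in replicate 2 was above it on 3 of 6 chromosomes and in 10 of 18 parts.

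**Figure D5:**
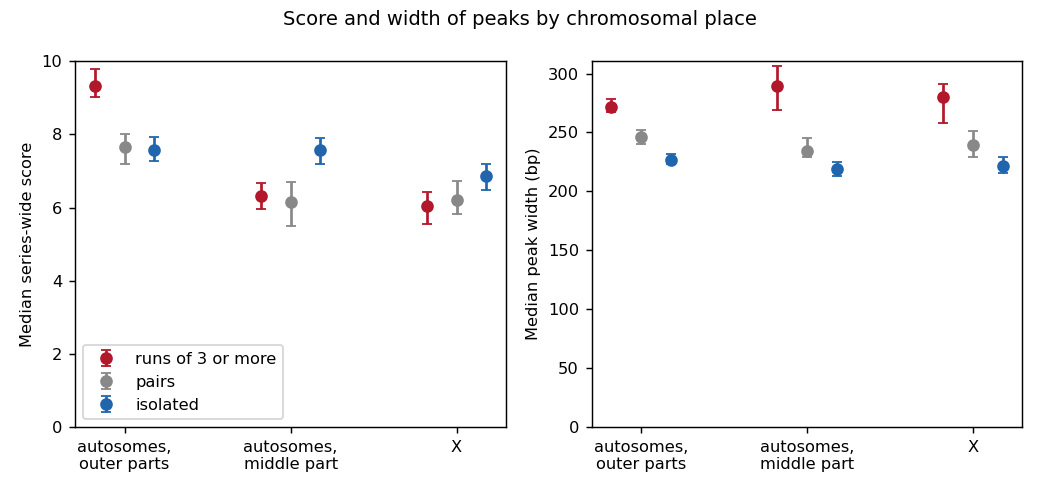
Median series-wide score (left) and median width in bp (right) of peaks in runs, in pairs and isolated, for the outer parts of the autosomes, their middle parts and X; bars are 95% intervals of the median. Run peaks are wider in all 3 places, and their median score is 9.32 in the outer parts but 6.32 and 6.05 in the middle parts and on X.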

How the data were processed

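Peaks were called with MACS on WormBase WS220, per the file headers and source column, and the submitters' processing notes name BWA and ce10. The sources used here give no versions, thresholds or use of the inputs. The score in each list is as the authors deposited it, with 2 decimals and no named scale (1847 distinct values in the series-wide list), and was compared within 1 list. All peaks were kept. A peak counted as called in a replicate if it overlapped a peak of that list by at least 1 bp. A chromosome's length was taken as the end of its last peak in any list, and parts were assigned by peak midpoint. Shares carry 95% Wilson intervals and medians 95% binomial order-statistic intervals, for counting error over peaks. Nothing in the labels says that the replicates came from separate cultures. The joining of runs and the overlap count were tested on simulated data. Regions named are the runs with the most peaks (overall and per chromosome), the longest span, the highest score or the most peaks in replicate 1, those in neither replicate and those nearest the joining limit. The runs, score classes and places were chosen with earlier results of these data known. The gene table is on another assembly, WBcel235, and was used to count genes per chromosome. Values were computed in Python 3.11.15 with pandas 2.3.3, SciPy 1.17.1 and NumPy 2.4.6, and drawn with Matplotlib 3.10.9.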

Additional observations from a re-analysis of the deposited data

How the results depend on the processing

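No paired analysis was possible because the results come from no test and no list gives a value for an input sample. With a joining distance of 500 bp, 25.4% of series-wide peaks were in runs, and the median score and width of run peaks were 8.67 and 287 bp. Of these run peaks 17.5% were called in replicate 1 and 94.4% in replicate 2, against 9.37 and 93.3% of isolated peaks. The shares over all series-wide peaks, 12.1 and 93.3%, do not depend on the joining. With 2000 bp, 57.5% were in runs, and the medians of run peaks were 7.89 and 263 bp. Replicate 1 then called 14.98% of run peaks and 7.68% of isolated peaks. With at least 4 peaks there were 716 runs with 31.4% of the peaks, a median width of 282 bp, 9.55% of run peaks on X and 18.7% of autosomal ones in the middle part. Peaks at or above the median score, joined anew, gave 437 runs with 26.97% of these peaks. Of their run peaks 35.9% were called in replicate 1 and 96.7% in replicate 2, and the medians were 15.43 and 330.5 bp. On X lay 4.20% of them, and 6.89% of the autosomal ones lay in the middle part. These shares were not computed for all peaks at or above the median score, so they do not set runs apart from other strong peaks. With 50% of the peak covered, 10.7% of run peaks were called in replicate 1 and 92.01% in replicate 2. Over all series-wide peaks these shares were 7.88 and 92.4%, and among isolated peaks 5.50 and 93.01%. Each replicate list alone, replicate 1 first, gave 115 and 1871 runs, 24.6 and 45.97% of peaks in runs, median widths of 227 and 275 bp, 3.44 and 12.7% on X and 4.23 and 22.2% in the middle part. The differences in median score between run and isolated peaks by place were recomputed in settings chosen after seeing the data, and kept their direction with joins of 500 bp, of 2000 bp and with at least 4 peaks. With 500 bp they were 2.20 in the outer parts, -0.82 in the middle parts and -0.31 on X (1.75, -1.25 and -0.81 as reported), and with 2000 bp 1.31 in the outer parts and -1.40 on X. Over all places together, run peaks had a higher median score, width and replicate 1 share than isolated peaks with 500 bp, 2000 bp and at least 4 peaks. With 50% covered, a setting that changes only the calls, the replicate 1 share of run peaks was also the higher one. Depth is unknown, so a weak peak missing from replicate 1 is not shown to be absent there.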
